A study of Homo sapiens with 4 samples.

Results

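Long noncoding RNAs (lncRNAs) were followed in VCaP cells, an androgen-responsive human line from metastatic prostate cancer with a TMPRSS2-ERG fusion, after transfection with an siRNA against ZBTB7A (siZBTB7A) or with a non-targeting control siRNA (siNTC). The 8 genes described were chosen by name, as prostate-associated or nuclear-abundant lncRNAs, and were matched through GENCODE 29 symbols to Ensembl identifiers. They are MALAT1, NEAT1, PCA3, PCAT1, PCAT14, PCGEM1, SCHLAP1 and DRAIC, 8 of the 60308 genes in each count table and 8 of 15307 lncRNA genes named there. Both groups were the same cell line grown in DMEM with fetal bovine serum, and the labels give no siRNA dose and no time after transfection. Total RNA was sequenced with a stranded kit, without a label that mentions selection for poly(A) tails. Each group had 2 count tables, numbered 1 and 2.

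MALAT1 and NEAT1 are transcribed next to each other on chromosome 11 and stay in the nucleus. MALAT1 collects in nuclear speckles, where splicing factors are stored, and NEAT1 is the scaffold of paraspeckles. The remaining genes are known for restricted expression in prostate tissue or prostate cancer: PCA3 is measured in urine as a cancer marker, PCAT1 and SCHLAP1 are associated with aggressive disease, PCGEM1 and DRAIC with androgen signalling, and PCAT14 derives from an endogenous retrovirus.

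The most abundant MALAT1 and long NEAT1 transcripts end without a poly(A) tail, and those ends are shown because total RNA was sequenced, which can hold RNAs without a tail. In both, a pair of U-rich motifs and an A-rich tract fold into a triple helix that protects the 3′ end after cleavage by RNase P. The sequences run 5′ to 3′ in DNA letters from GENCODE 29 (GRCh38 assembly), with the motifs TTNCTTTT and AAAAAGCAAAA in capitals. The second motif was read off the last 11 bases of NEAT1-202, so that NEAT1 matches it by construction.
NEAT1-202, bases 22646 to 22743 of 22743: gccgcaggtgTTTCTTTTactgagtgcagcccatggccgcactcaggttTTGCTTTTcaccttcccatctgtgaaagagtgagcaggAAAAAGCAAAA
MALAT1-202, bases 8260 to 8365 of 8708: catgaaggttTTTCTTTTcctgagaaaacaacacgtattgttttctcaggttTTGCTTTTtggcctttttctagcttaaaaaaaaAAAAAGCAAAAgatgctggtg

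Of 55740 longest transcripts searched in the sense direction, 2 (0.00359%) held a pair of U-rich motifs followed by the A-rich tract with at most 80 bases between neighbours, and these were MALAT1-202 and NEAT1-202. The motifs as written fit the printed stretches of both genes, so that finding these genes is no independent result. The count shows only that no other transcript searched held this pattern. The NEAT1 transcript ended at the last base of the tract. The annotated MALAT1 transcript went on for 353 bases after it. The gene counts do not separate the short from the long NEAT1 isoform, nor MALAT1 from the tRNA-like RNA within its annotated exon.

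Depth was similar in the 4 tables, with 5556061 to 5927656 reads counted in genes on the main strand. The 2 tables of a group agreed within counting noise (chi-square per degree of freedom over genes 0.993 in siNTC and 0.995 in siZBTB7A, against 3.50 to 3.64 between groups). The labels number them as replicates R1 and R2 and do not say whether they came from separate cultures. Given that agreement they may be 1 library deposited in 2 tables, and they were counted as 1 sample per group, with no replicate check. The words higher and lower are kept for genes that passed edgeR's quasi-likelihood test over all 12848 genes tested at a Benjamini-Hochberg adjusted p under 0.05. That test compares the 2 libraries, not the 2 conditions. Folds are siZBTB7A over siNTC from the summed tables, with exact 95% intervals that cover counting error only. Levels are CPM, gene counts scaled to a common library total after TMM normalization. ZBTB7A, the targeted gene, was counted 90 and 115 times in siNTC and 70 and 74 times in siZBTB7A, a fold of 0.743 (0.596 to 0.924) that did not pass (edgeR adjusted p = 0.0969). VCaP and luminal prostate markers were all counted (11 of 11 tested), whereas the 14 matched markers of basal, immune, endothelial and fibroblast cells together had 20 to 22 reads per table, with 5 of them at 0, and none passed the filter on low counts.

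Of the 8 lncRNA genes, 6 passed the filter on low counts. MALAT1 was lower and PCAT14 higher in the siZBTB7A library. NEAT1, DRAIC, PCAT1 and SCHLAP1 did not pass the test, PCGEM1 was near the limit of detection, and PCA3 had no read on its own strand. Over all genes tested, 4.97% were called, 2.25% as higher and 2.72% as lower. That split, 289 higher and 350 lower, was 171 and 579 with total gene reads as the scale in place of TMM. Among the 816 tested lncRNA genes, 31 were called (3.8%), 7 as higher (0.858%) and 24 as lower (2.94%). The median log2 fold was -0.03 over these lncRNA genes and 0.000803 over all genes tested. The 2 called of 6 tested are too few genes to set as a share against that background.

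**Figure D1:**
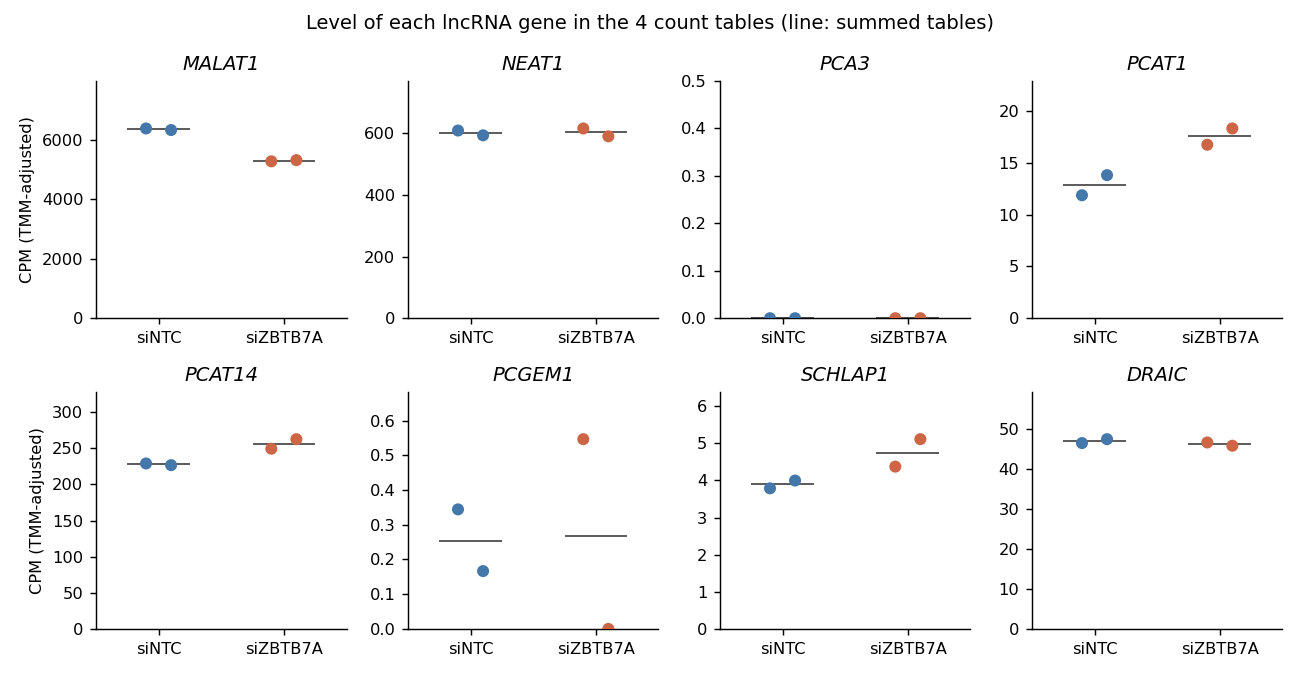
Each panel plots 1 lncRNA gene, with the level in CPM after TMM scaling on a vertical axis that starts at 0 and the 2 siNTC tables (blue) and 2 siZBTB7A tables (orange) along the horizontal axis. Lines mark the level of the summed tables; MALAT1 is lower in both siZBTB7A tables, PCAT14 is higher in both, and PCA3 is at 0 in all 4.

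MALAT1 was by far the most abundant of the 8 genes. Its reads numbered 37130 and 38068 in siNTC and 29011 and 30216 in siZBTB7A. In CPM these were 6393 and 6340 against 5286 and 5326, so both siZBTB7A tables lay below both siNTC tables. The fold was 0.833 (0.825 to 0.843), and the gene was called lower (edgeR log2 fold -0.26, adjusted p = 1.7e-05). That adjusted p moved by many orders of magnitude between alternatives, with 0.00283 (edgeR, unstranded counts) as the largest, so its size carries little beyond the call. Within a group, the second table over the first was 0.992 (0.978 to 1.006) in siNTC and 1.008 (0.992 to 1.024) in siZBTB7A, so the difference between groups was far larger than that between tables of 1 group. Nonoverlap alone is common here: the tables of the 2 groups did not overlap for 46.9% of all genes tested.

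MALAT1 took 0.645% of gene reads in siNTC and 0.524% in siZBTB7A. As a share of the reads of all lncRNA genes it went from 7.10% (7.05% to 7.15%) to 6.44% (6.39% to 6.49%). Among the 51 genes tested at 1000 CPM or more, 35 were called, 2 had a lower fold than MALAT1 and 4 had a fold farther from 1. The 2 with a lower fold were both noncoding: SNHG3, a snoRNA host gene, at 0.745 (0.727 to 0.763), and RMRP, the RNA subunit of RNase MRP, at 0.821 (0.813 to 0.830). The other two were the mitochondrial genes MT-CO1 at 1.288 and MT-RNR2 at 1.228, both called higher. These genes were looked up after the values of MALAT1 had been seen.

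The make-up of the libraries also differed. Mitochondrial genes took 17.1% of gene reads in siNTC and 20.2% in siZBTB7A. Leaving their reads out of totals and fit kept the fold of MALAT1 at 0.833, an alternative chosen after seeing the data. Reads at no annotated exon of the main strand were 20.6% and 23.1% of all reads. The part of these unassigned reads in the result was not tested. Correcting for transcript GC content and length (longest transcript per gene) moved the fold to 0.884, and MALAT1 was still called lower (edgeR adjusted p = 0.000158). The shift taken off by that correction was -0.08 on the log2 scale. The correction was fitted to the folds between these same libraries. It thus also takes off any difference between the conditions that follows GC content or length.

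NEAT1, the neighbour of MALAT1, did not pass the test. Its 3540 and 3566 reads in siNTC and 3382 and 3351 in siZBTB7A were 609.5 and 593.9 CPM against 616.2 and 590.7 CPM. The tables of the groups overlapped, and the fold was 1.003 (0.970 to 1.037; edgeR adjusted p = 0.956). With the GC and length correction, however, the fold of NEAT1 was 1.11 and it passed the test (edgeR adjusted p = 4.6e-06). At 22743 bases its longest transcript lies at the edge of the lengths over which the correction was fitted, with 13 tested genes at least as long, itself included.

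The ratio of NEAT1 to MALAT1 reads does not depend on how libraries are scaled. NEAT1 made up 8.70% and 8.57% of the reads of both genes in siNTC and 10.44% and 9.98% in siZBTB7A, and the groups did not overlap. Over the summed tables the share was 8.63% (8.44% to 8.83%) in siNTC and 10.2% (9.98% to 10.4%) in siZBTB7A. The counting intervals were apart. With NEAT1 at a fold of 1.003, the change in this share largely restates the fold of MALAT1 (0.833). FRMD8, the nearest protein-coding gene before this pair, was at 1.15 (1.03 to 1.29) and did not pass the test (edgeR adjusted p = 0.165).

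PCAT14, a prostate-restricted lncRNA on chromosome 22, was the second called gene. Its reads were 1330 and 1361 in siNTC and 1369 and 1490 in siZBTB7A, or 229.0 and 226.7 CPM against 249.4 and 262.6 CPM. Both siZBTB7A tables were above both siNTC tables, but the groups did not overlap for 46.9% of all genes tested. The fold was 1.12 (1.07 to 1.19), and the gene was called higher (edgeR log2 fold 0.17, adjusted p = 0.00114). The call did not hold in DESeq2 (fold 1.12, adjusted p = 0.217), nor in edgeR without the second siZBTB7A table (fold 1.09, adjusted p = 0.140). BCR, the nearest protein-coding gene before it, was at 1.07 (0.957 to 1.20) and did not pass, and IGLL1, the nearest after it, had no reads.

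PCAT1 and SCHLAP1 had too few reads for a firm statement. PCAT1, an lncRNA of chromosome 8 that is known to affect BRCA2 and homologous recombination, was counted 69 and 83 times in siNTC and 92 and 104 times in siZBTB7A. Both siZBTB7A tables, at 16.8 and 18.3 CPM, were above the siNTC tables, at 11.9 and 13.8 CPM. Such nonoverlap was seen for 46.9% of all genes tested. Its fold of 1.36 (1.098 to 1.698) did not pass the test over all genes (edgeR adjusted p = 0.0729). Its point estimate was the highest of the 6 tested genes.

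SCHLAP1, which is known to interfere with the SWI/SNF chromatin remodelling complex, had 22 and 24 reads in siNTC and 24 and 29 reads in siZBTB7A. These were 3.79 and 4.00 CPM against 4.37 and 5.11 CPM, a fold of 1.22 (0.806 to 1.85; edgeR adjusted p = 0.668), and a difference was not detectable at this depth. Of 25 tested SWI/SNF subunit genes, 1 was called, PBRM1 as lower at 0.878 (0.823 to 0.936), and the median fold was 0.983. That share is near the 4.97% called over all genes, and PBRM1 was not called by DESeq2 or with the GC and length correction. CWC22 and UBE2E3, the coding genes on either side of SCHLAP1, were at 0.951 (0.780 to 1.16) and 1.02 (0.837 to 1.23) and did not pass.

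DRAIC, an lncRNA reported to inhibit NF-kB signalling through the IKK complex, was counted moderately. Reads numbered 270 and 285 in siNTC and 256 and 260 in siZBTB7A, or 46.5 and 47.5 CPM against 46.6 and 45.8 CPM. The tables overlapped, and the fold was 0.984 (0.871 to 1.11; edgeR adjusted p = 0.929). Its coding neighbours differed from each other: RPLP1, which encodes a ribosomal stalk protein, was called higher at 1.11 (1.08 to 1.15), and TLE3, a corepressor gene, was at 1.02 (0.943 to 1.11) and did not pass.

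**Figure D2:**
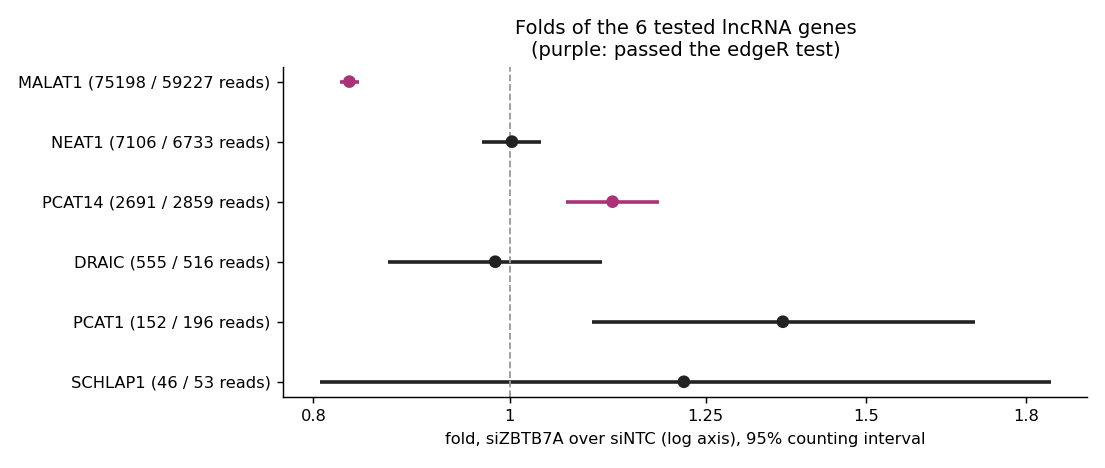
Points give the fold of siZBTB7A over siNTC on a log axis for the 6 tested lncRNA genes, with bars for the exact 95% counting interval and the summed reads of each group beside the name. The interval of MALAT1 (0.825 to 0.843) is the narrowest, and that of SCHLAP1 (0.806 to 1.85) the widest.

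**Figure D3:**
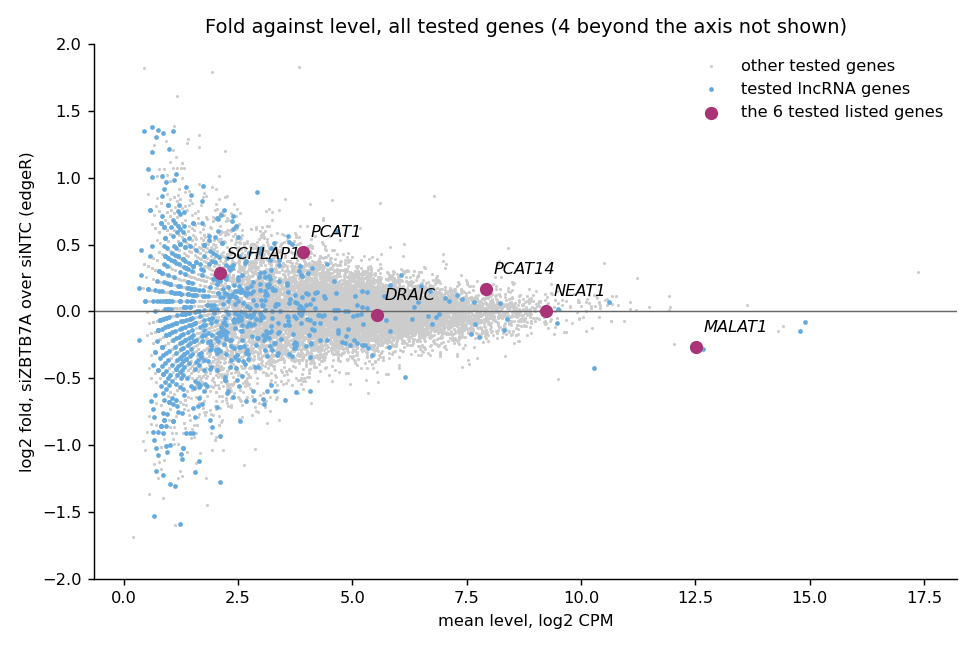
Each point is 1 of 12848 tested genes, with the mean level in log2 CPM on the horizontal axis and the edgeR log2 fold of siZBTB7A over siNTC on the vertical axis; 4 genes lie beyond the axis. MALAT1 stands at the high end of the level axis below 0, and PCAT1 and SCHLAP1 lie among genes whose folds scatter widely.

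PCGEM1, a prostate lncRNA linked to androgen signalling, was counted 2 times and 1 time in siNTC and 3 and 0 times in siZBTB7A. Both groups were at the floor of 3 reads, 0.254 CPM in siNTC and 0.269 CPM in siZBTB7A, and no fold is given. The coding genes on either side of it were far better counted: TMEFF2 had a fold of 0.905 (0.836 to 0.980) and SLC39A10 one of 1.21 (1.06 to 1.39), and neither passed the test (edgeR adjusted p = 0.135 and 0.0871).

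PCA3 had 0 reads on its own strand in all 4 tables, which allows a level of up to 0.254 CPM in siNTC and 0.269 CPM in siZBTB7A. Its exons did hold reads of the opposite strand, 32 and 25 in siNTC and 26 and 25 in siZBTB7A. PCA3 lies within PRUNE2, a coding gene transcribed from the other strand. In an unstranded count the same reads would have been given to PCA3, as 57 reads in siNTC and 51 in siZBTB7A. PRUNE2 itself had 2047 and 2074 reads in siNTC and 1675 and 1794 in siZBTB7A, a fold of 0.891 (0.851 to 0.932), and was called lower (edgeR adjusted p = 0.000112). After the correction for GC and length it stood at -0.08 (log2) and no longer passed (edgeR adjusted p = 0.230), and in DESeq2 its adjusted p was 0.0863. Of the coding genes on either side, GCNT1 at 1.10 (0.898 to 1.36) did not pass, and FOXB2, with 12 and 6 reads, was not tested.

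The strand of the reads separated the genes further. The median share of opposite-strand reads was 0.535% over 12418 tested genes with at least 50 reads on both strands together. MALAT1 stood at 0.454% (0.407% to 0.505%) in siNTC and 0.529% (0.472% to 0.591%) in siZBTB7A, and NEAT1 at 0.239% and 0.178%. PCAT14, DRAIC and PCAT1 were between 0% and 1.77%. SCHLAP1 had the largest share among genes with reads on their own strand, 17.9% (8.91% to 30.4%) from 10 opposite-strand reads in siNTC and 8.62% (2.86% to 18.98%) from 5 in siZBTB7A. Over all 4 tables its share was 13.2%, and 8.84% of those 12418 genes had a higher one. GENCODE 29 places the lncRNA AC009478.1 on the other strand within the SCHLAP1 locus, with 17 and 15 reads in the 2 groups. In the unstranded counts SCHLAP1 had 30 and 32 reads in place of 46 and 53, and counts of that kind leave out reads that overlap genes on both strands.

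**Figure D4:**
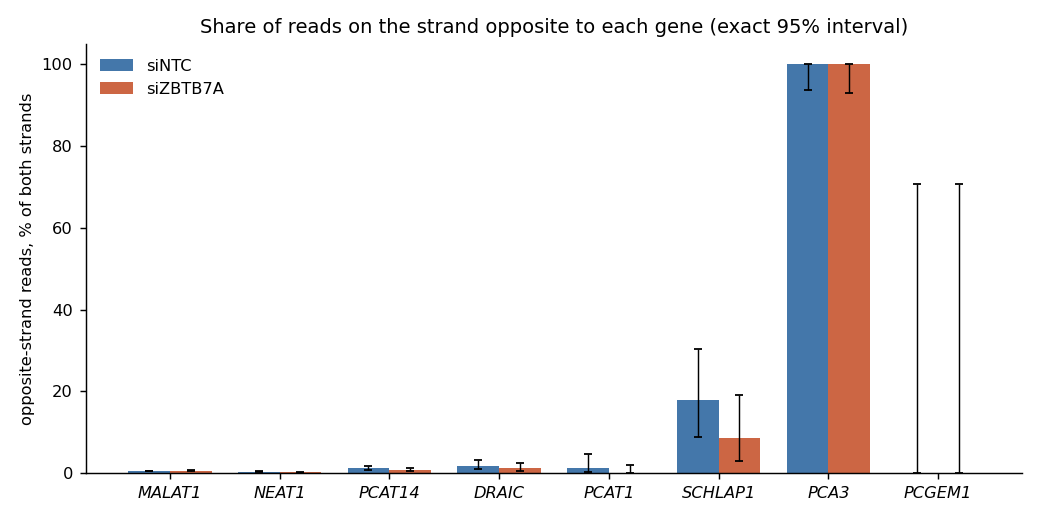
Bars give the percentage of reads on the strand opposite to each lncRNA gene in siNTC (blue) and siZBTB7A (orange), with exact 95% intervals. PCA3 is at 100% in both groups, SCHLAP1 at 17.9% and 8.62%, and the wide intervals of PCGEM1 come from 3 reads per group.

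Compared per kilobase of merged exons, the genes spanned a wide range of levels. MALAT1 was at 721 CPM per kilobase (RPKM) in siNTC and 601 in siZBTB7A, PCAT14 at 46.4 and 52.2, and NEAT1 at 26.4 and 26.5. PCAT14 was thus above NEAT1 per length, by 1.76 times in siNTC and 1.97 times in siZBTB7A, although NEAT1 had more reads. Next came SCHLAP1 at 2.71 and 3.31 RPKM and DRAIC at 2.55 and 2.50 RPKM, whose counting intervals overlapped, so that their order is not settled. PCAT1 followed at 0.764 and 1.04 RPKM, then PCGEM1 at 0.148 and 0.157 RPKM, and PCA3 at 0.

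Among 4488 lncRNA genes with reads in siNTC, ranked by reads per kilobase, MALAT1 was 6, PCAT14 20 and NEAT1 29. SCHLAP1 and DRAIC ranked 322 and 352, PCAT1 1204 and PCGEM1 3309. These lengths are from GENCODE 29, not from the annotation behind the counts. The order at the low end rests on them: GENCODE 29 merges 49 exon blocks over 32 transcripts into PCAT1. With the longest single transcript as the length, PCAT1 was at 6.46 and 8.82 RPKM, and DRAIC at 5.21 and 5.13 RPKM, with counting intervals that overlapped in siNTC, so that their order is not settled either. Both were then above SCHLAP1.

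**Figure D5:**
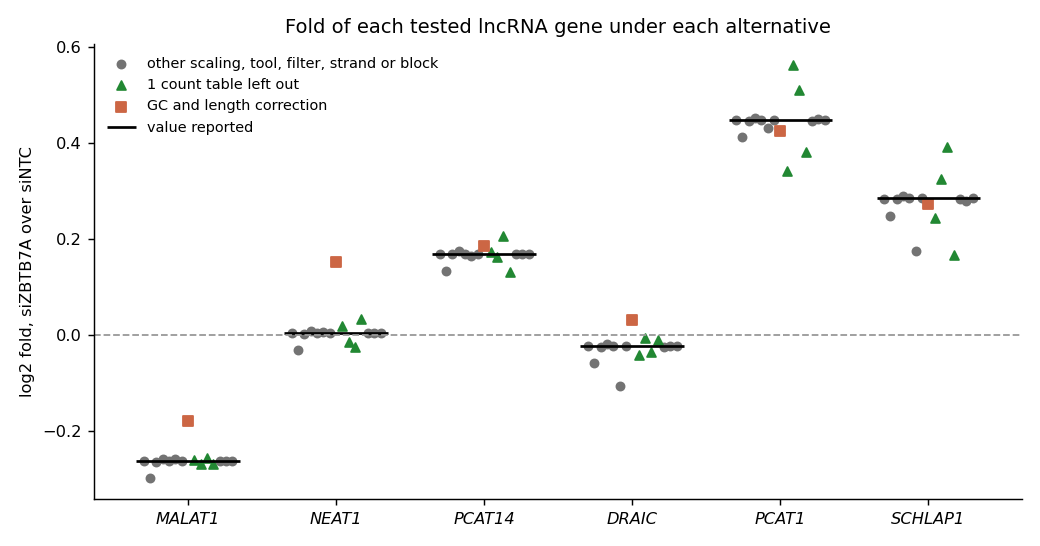
For each tested lncRNA gene, points show the log2 fold of siZBTB7A over siNTC under each alternative (grey circles, other scaling, tool, filter, strand or block; green triangles, 1 table left out; orange squares, GC and length correction) and the black line the edgeR value reported. MALAT1 stays between -0.30 and -0.18 and PCAT14 between 0.13 and 0.21, whereas NEAT1 and DRAIC cross 0.

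Genes of the nuclear bodies where MALAT1 and NEAT1 reside were mostly not called. Of 32 tested nuclear speckle genes, 4 were lower and 0 higher, against 2.72% lower over all genes, and the median log2 fold was -0.037 against 0.000803. The 4 were SON, which encodes a speckle core protein, at 0.903 (0.864 to 0.944), BCLAF1 at 0.891 (0.833 to 0.954), and the splicing factor genes SRSF1 at 0.922 (0.876 to 0.970) and TRA2B at 0.911 (0.859 to 0.967). None of these 4 was called by DESeq2, which called 0 of the list, or with the GC and length correction. Of 28 tested paraspeckle genes, 1 was higher and 1 lower, and the median fold was 0.999. The higher one was AKAP8L at 1.22 (1.10 to 1.35), and the lower one EWSR1, an RNA-binding protein gene, at 0.913 (0.871 to 0.957). Neither was called by DESeq2 or with the GC and length correction, and 2 of 28 is close to the 4.97% called over all genes.

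Among 26 tested factors that process or bind MALAT1 and NEAT1, 1 was called, YTHDC1, a nuclear reader of N6-methyladenosine, as lower at 0.847 (0.782 to 0.917). The median fold of that list was 0.9998, its share called was near the 4.97% over all genes, and YTHDC1 was not called by DESeq2 or with the GC and length correction. For genes that androgen induces, 18 were tested and their median fold was 1.01. The transporter gene SLC45A3 at 1.16 (1.10 to 1.21) and the kallikrein gene KLK2 at 1.024 (1.010 to 1.037) were higher. NDRG1, a stress-response gene, was lower at 0.952 (0.933 to 0.972), but DESeq2 did not call it (adjusted p = 0.132). These were 2 higher and 1 lower of 18, against 2.25% higher and 2.72% lower over all genes. Of the 11 VCaP and luminal markers, 3 were higher and 0 lower, namely KLK2, the membrane antigen gene FOLH1 at 1.16 (1.11 to 1.21), and the homeobox gene HOXB13 at 1.08 (1.04 to 1.13). KLK2 and HOXB13 were not called by DESeq2, with total gene reads as the scale or with the GC and length correction, and the log2 fold of KLK2 was then -0.0025 on total gene reads and -0.00084 with the correction. SLC45A3 and FOLH1 were called under all 15 alternatives.

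Other lncRNAs were called in 1 of 2 lists. Of 15 tested nuclear or structured lncRNAs, 4 were lower and 0 higher, against 2.94% lower over all tested lncRNA genes, and the median fold was 0.960. They were KCNQ1OT1, the antisense RNA of an imprinted domain, at 0.712 (0.644 to 0.787), RMRP at 0.821, NORAD, which binds PUMILIO proteins, at 0.878 (0.830 to 0.928), and TUG1 at 0.889 (0.838 to 0.943). DESeq2 called 2 of the list, without NORAD and TUG1, and the GC and length correction lost KCNQ1OT1 and TUG1. RMRP was not called by edgeR without the filter on low counts. Of 10 tested other prostate-related lncRNAs, 0 were called by edgeR (0 at an unadjusted p under 0.05, and 0 by DESeq2 and 0 by limma-voom), and the median fold was 0.994.

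The fold of each abundant gene was compared with those of 50 other lncRNA genes at 30 CPM or more in both groups. Likeness was the absolute difference of log2 folds over the 2 groups. Nearest to MALAT1 were PWAR5 (difference 0.0025), HCG18 (0.011) and AC005332.6 (0.012). PWAR5 alone of these was called, as lower at 0.832 (0.744 to 0.930). Nearest to NEAT1 were AL356488.2 (0.013), EPB41L4A-AS1 (0.018) and TERC (0.023). For PCAT14 they were TP53TG1 (0.016), SNHG6 (0.018) and LINC01578 (0.018), and for DRAIC they were SNHG12 (0.0012), HOTTIP (0.0013) and TERC (0.0041). None of the genes near NEAT1, PCAT14 and DRAIC was called. For NEAT1 and DRAIC, whose folds are near 1, this largely follows from picking genes with like folds.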

How the data were processed

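Whole-number read counts per gene were deposited by the authors for 4 tables, 2 per group, in the layout of STAR gene counts (unstranded and 1 column per strand). The submitters' processing notes name STAR 2.4.2a, hg19 and GRCh37; which annotation release was counted is not stated there. Reads that map to several places or overlap several genes are left out of gene counts in this layout. Gene names, classes, lengths and neighbours came from GENCODE 29, a different build, so no coordinates are given; 55698 of 60308 identifiers matched. Column 4 was used, which exceeded the other strand by 24.9 to 25.5 times. The rows that name no gene held 50.8% to 51.2% of reads and stayed out.

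The test was edgeR 4.0.16 (R 4.3.3): robust quasi-likelihood, TMM, filterByExpr, group only, Benjamini-Hochberg adjusted p under 0.05. Nothing says that tables came from separate cultures, so p-values measure only spread between tables. The 2 tables of a group were fitted as deposited but count as 1 sample. Intervals are exact (Clopper-Pearson, 95%). A level of 0 is bounded by 3 reads per group. PCR copies are not independent molecules.

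Alternatives were DESeq2 1.42.0, limma-voom (limma 3.58.1), other scalings, filters and strand, a replicate block, leaving out each table, and a natural spline (4 degrees of freedom each) on GC content and log2 length, used as an offset. That spline was fitted to the edgeR log2 folds between these same libraries, so it cannot tell a technical bias from a difference between conditions. Python 3.11.15, scipy 1.17.1 and pandas 2.3.3 were used. The genes described, the gene lists and the tests were chosen with earlier results of these data known. Named were the 8 lncRNA genes, ZBTB7A, up to 4 called genes of smallest p per list, neighbouring coding genes (some items are not reported here), the 3 lncRNA genes nearest in fold to each gene at 30 CPM, and the 3 called lncRNA genes of at least 5 CPM with the largest rise and the largest fall. AC009478.1 and the genes above 1000 CPM were named after their values were seen.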

Additional observations from a re-analysis of the deposited data

Results flagged for a closer look

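Reads at no annotated exon of the main strand, which no gene count uses, made up 23.1% of the reads in siZBTB7A (23.132% to 23.166%) and 20.6% in siNTC (20.578% to 20.611%). This share was flagged because it was above that of the control library in both siZBTB7A tables (23.13% and 23.17% against 20.58% and 20.61%). These reads can include introns and unannotated noncoding transcripts. With 1 library per group the difference has no replicate check.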

How the results depend on the processing

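MALAT1 was lower and past the threshold under all 15 alternatives, with log2 folds of -0.30 to -0.18. PCAT14 kept its direction under all 15, and its call was lost in DESeq2 and without the second siZBTB7A table, which left 1 of the 8 genes called in each case. The number called was otherwise 2, or 3 with NEAT1 under the GC and length correction. NEAT1 turned to -0.032 with total gene reads as the scale, and ranged from -0.026 to 0.034 when 1 table was left out. DRAIC turned to 0.030 with the GC and length correction. The cause was not tested. PCAT1 and SCHLAP1 stayed above 0 and short of the threshold wherever edgeR or limma-voom gave a value.

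Over all genes, 639 were called. The GC and length correction called 367 (187 higher, 180 lower) and DESeq2 89 (42 and 47); the cause was not tested. Leaving out a table called 303 to 373, from fewer tables: leaving out the first or second siNTC table gave 373 or 353, and 346 or 303 were called without the first or second of siZBTB7A. The replicate block called 654 genes and the same 2 of the 8, MALAT1 and PCAT14. Between groups, tables with the same number deviated with a correlation of -0.013 (4911 genes). The tables of a group differ by no more than counting noise, so this correlation cannot show whether same-numbered tables were handled together. Depth limits PCAT1, SCHLAP1, PCGEM1 and PCA3.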

Other observations

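Beyond the listed genes, the called lncRNA genes at 5 CPM or more with the largest rises were AC092718.4, a sense-intronic RNA, at 1.86 (1.35 to 2.58), LINC02593 at 1.51 (1.28 to 1.79) and FLJ20021 at 1.48 (1.16 to 1.90). LINC02593 was the best counted of these 3, with 237 and 339 reads. The largest falls were in LGALS8-AS1 at 0.565 (0.388 to 0.814), AC107068.1 at 0.619 (0.457 to 0.835) and FP236241.1 at 0.630 (0.487 to 0.812), from 88, 123 and 168 reads in siNTC. Each of these folds was farther from 1 than those of MALAT1 and PCAT14. These genes were picked for the size of their folds and had far fewer reads, so that ordering largely follows from the choice.

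All lncRNA genes together took 9.08% of gene reads in siNTC (9.06% to 9.10%) and 8.14% in siZBTB7A (8.12% to 8.15%). The gene AL355075.4 alone held 350300 of these 1059239 reads in siNTC and 299510 of 919841 in siZBTB7A. The total also includes mitochondrial reads, at 17.1% in siNTC and 20.2% in siZBTB7A. The share is thus no measure of the typical lncRNA gene, and the median fold of the 816 tested was 0.978. The tables of a group were close, at 9.078% and 9.082% against 8.155% and 8.123%.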
